A study of Mus musculus with 40 samples.

Results

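The comparison described here is that of mouse melanoma cells carrying wild-type Bmal1 (YUMM2.1-WT) with cells carrying the empty vector (YUMM2.1-EV), both with a control hairpin. Its groups follow the labels, and it was chosen with earlier results of these data known. It holds 4 of the 40 libraries of the series, 2 from each group. YUMM2.1 is a cell line from a genetically engineered mouse melanoma driven by mutant Braf, with loss of 1 Cdkn2a allele (Cdkn2a +/-) and a stabilised β-catenin allele (Bcat STA/+). The gene for Bmal1 is intact in these cells, so WT-Bmal1 was added on top of the cells' own protein. Both populations were made by lentiviral transduction and sorting for the vector's GFP, so that neither is a clone. Both then received the PLKO.1 scramble hairpin (shNC) with puromycin selection, so that each carries a hairpin as well as an expression vector. The study also describes lines of these names made from cells with a Bmal1-promoter luciferase reporter, selected with blasticidin. Whether the sequenced cells carried this reporter is not stated. The promoter of the Bmal1 vector is not given in the sources used here. Each library is a 3′ mRNA library, which counts the poly(A) end of each transcript.

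Bmal1, encoded by Arntl, is a basic helix-loop-helix transcription factor that pairs with Clock and binds the E-box CACGTG. The pair drives the Per and Cry genes, whose proteins inhibit it, and the Rev-erb genes Nr1d1 and Nr1d2, whose proteins repress Arntl. The PAR bZIP factors Dbp and Tef and the repressors Bhlhe40 and Bhlhe41 are outputs of the same loop. In melanoma, Sox10 is the lineage factor of melanocytic and neural crest-like cells, whereas Sox9, Snai2, Fn1 and the collagens are associated with a dedifferentiated, mesenchymal state. The comparison asks how added Bmal1 changes this cell state. The study named Axl, Lmo1, Twist2, Snai2, Klf4, Prrx2, Col1a1, Fn1 and Sox9 for cells with added Bmal1 that are described without a hairpin.

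The 2 EV libraries held 8217193 and 9232728 estimated reads and the 2 WT libraries 7587633 and 8886824, within the range of 3643332 to 22970049 over all 40 libraries. On the log2 scale of CPM, the read counts scaled to the size of each library, the 2 EV libraries correlated across genes at Pearson's r = 0.9802 and the 2 WT libraries at 0.9711, whereas the 4 pairings of an EV with a WT library gave 0.9272 to 0.939. Arntl itself (ENSMUSG00000055116, chr7:113207465-113314126 in mm10) was at 30.5 and 26 CPM in the EV libraries and 34.9 and 33.4 CPM in the WT libraries (log2 fold change 0.27 ± 0.16, the error being the SE here and below, adjusted p = 0.2). The 2 groups did not overlap, but the difference did not pass the test. Whether the lentiviral insert carries the 3′ end of Arntl that these libraries read is not stated, so that this value does not check the labels. Of the defining melanocytic markers, Sox10 was present in every library and Mitf lay at 15.9 and 14.2 CPM in EV and 21 and 18 CPM in WT cells. By contrast, Dct, Mlana and Tyrp1 were at 0 in all 4 libraries, Pmel reached at most 0.348 CPM and Tyr at most 1.87 CPM. The 12 leukocyte markers summed to between 0.348 and 0.763 CPM, with Cd3e, Cd4, Cd8a, Itgax, Adgre1 and Nkg7 among those at 0. The 6 endothelial markers summed to 10.6 and 7.85 CPM in EV and 21.4 and 20.4 CPM in WT cells. Of these, Cdh5 rose (3.48 and 2.07 CPM in EV, 12.7 and 11.5 CPM in WT; log2 fold change 2.13 ± 0.29, adjusted p = 3.5e-05), but Tek and Emcn were at 0 and Kdr at most 0.267 CPM. Pecam1 was not called (6.25 and 5.67 CPM in EV, 8.15 and 8.94 CPM in WT). The 6 keratinocyte markers summed to 0.813 to 2.72 CPM, and Krt10, the only one tested, was not called. The part of endothelial transcripts in the results below was not tested.

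Added WT-Bmal1 was accompanied by differences in a large part of the transcriptome. Of 14027 genes tested, 4473 (31.9%) differed at an adjusted p under 0.05, with edgeR's quasi-likelihood test and Benjamini-Hochberg adjustment, which is the test behind each adjusted p below. Of these, 2256 (16.1% of those tested) were higher and 2217 (15.8%) lower in YUMM2.1-WT. The counts of called members in each gene list below are to be read beside these shares. A count near them says nothing particular about the list. The groups did not overlap in 9226 genes (65.8%) and in 4464 of the 4473 called. A change of more than 2-fold (absolute log2 fold change over 1) was found for 833 of the higher and 702 of the lower genes, and the median log2 fold change over all tested genes was 0.0179. The number of called genes was 2847 without EV replicate 1 and 2920 without EV replicate 2, which leaves a single EV library that is then taken to vary like the other groups. The libraries of a group are described as biological duplicates, with nothing further on how the cultures were kept apart. The p-values rest on the spread between libraries of a group, pooled over the 8 libraries of the fit. Each group is described as 1 transduced and sorted population. An effect of WT-Bmal1 therefore cannot be told apart from other differences between the populations. With 2 libraries in each group, a permutation test of any single gene could not go below 0.333.

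**Figure D1:**
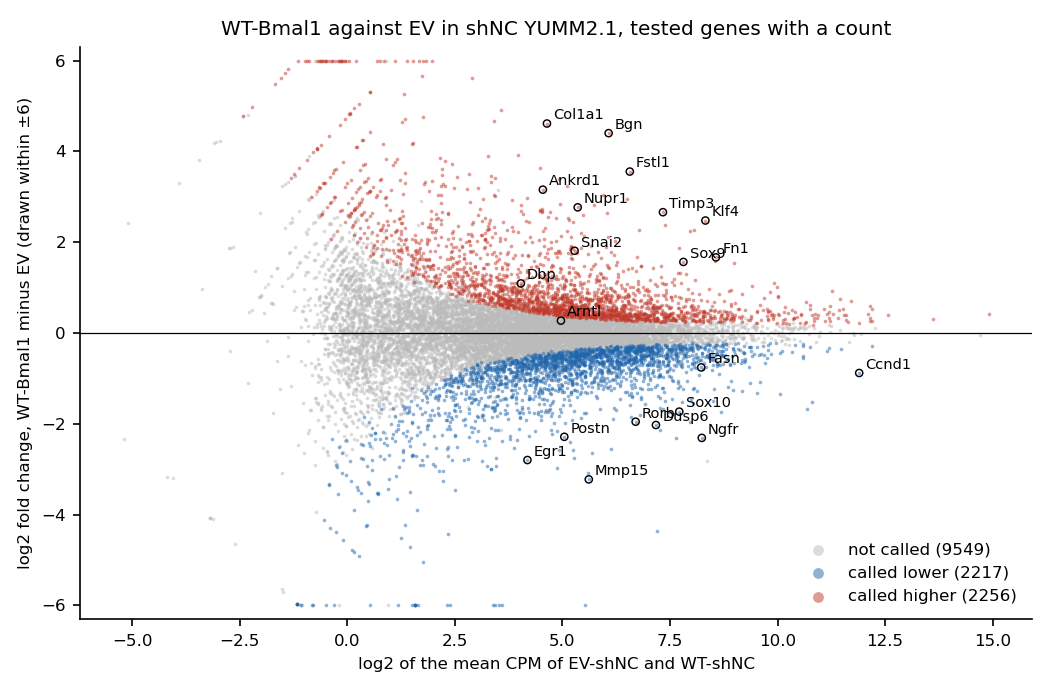
Each point is a tested gene with a count in the 4 libraries; the horizontal axis is the log2 mean CPM of the 2 groups and the vertical axis the log2 fold change of WT-Bmal1 against EV, drawn within ±6. Red and blue points are the 2256 genes called higher and the 2217 called lower, grey points were not called, and circled genes are named in the text. Col1a1, Bgn and Fstl1 lie among the highest and Mmp15 among the lowest of the well-expressed genes.

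The core clock list holds 20 genes, of which 17 passed the filter on low counts; Npas2 and Hlf were among those that did not. Of the 17, 4 were higher, 2 lower and 11 not called, with a median log2 fold change of 0.183; 16.1% of all tested genes were higher and 15.8% lower. The activators were not called, Clock lying at 50.2 and 46.4 CPM in EV and 51.4 and 46.7 CPM in WT cells. Among the repressors, Per2 was 4.68 and 4.14 CPM in EV and 8.68 and 8.24 CPM in WT cells (log2 fold change 0.94 ± 0.32, adjusted p = 0.035). This call is the least secure of the list, since leaving out any of the 4 libraries ended it, with log2 fold changes of 0.85 to 1.03. Per1 (0.64, adjusted p = 0.18), Per3 (0.52, 0.094) and Cry2 (0.50, 0.059) had positive log2 fold changes that did not pass, and Cry1 (-0.09) and Ciart (-0.28) negative values that did not pass.

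The Rev-erb gene Nr1d2 rose from 33.9 and 35.7 CPM in EV to 60.8 and 67 CPM in WT cells (log2 fold change 0.88 ± 0.13, adjusted p = 5.9e-05). Its relative Nr1d1 lay at 8.41 and 10.8 CPM in EV and 9.08 and 10.8 CPM in WT cells (log2 fold change 0.051 ± 0.24, adjusted p = 0.9). Of the outputs, Dbp was 12.3 and 8.72 CPM in EV and 18.6 and 25.9 CPM in WT cells (log2 fold change 1.09 ± 0.23, adjusted p = 0.0017). Tef was 47.4 and 56 CPM in EV and 82.7 and 99.1 CPM in WT cells (log2 fold change 0.81 ± 0.14, adjusted p = 2.4e-04). The groups did not overlap for Nr1d2, Dbp and Tef. This held for 4464 of the 4473 called genes and adds nothing to the calls. Rorb, a nuclear receptor that acts on the same promoter elements as the Rev-erb proteins, moved the other way and furthest of the list, from 162 and 168 CPM to 41.9 and 43.4 CPM (log2 fold change -1.95 ± 0.10, adjusted p = 4.9e-10). Bhlhe40 also fell, from 36.8 and 35.2 CPM to 23 and 26.1 CPM (log2 fold change -0.55 ± 0.15, adjusted p = 0.011). Its call was lost without EV replicate 1 (log2 fold change -0.52) and without WT replicate 1 (-0.46). Rora, Nfil3 and Bhlhe41 had log2 fold changes between 0.022 and 0.18 and were not called.

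The E-box was looked for on both strands in the 250 bases before each RefSeq start site (GRCm38.p6, the assembly of mm10). It was present in 9.97% of the 9700 tested genes with such a promoter, in 9.2% of those called higher and in 10.6% of those called lower. Of the 15 clock genes with a promoter, 5 held it, namely Tef, Per1, Ciart, Cry1 and Bhlhe41, of which Tef alone was called. The windows of these genes are shown because they hold the sequence that Bmal1 is known to bind, with 22 bases on either side and the E-box in capitals, the strand being that of the gene.
Tef, first start site, chr15:81802524-81802573, plus strand: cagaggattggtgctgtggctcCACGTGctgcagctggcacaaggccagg
Tef, other start site, chr15:81811254-81811303, plus strand: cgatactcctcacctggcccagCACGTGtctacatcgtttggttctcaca
Per1, chr11:69098761-69098810, plus strand: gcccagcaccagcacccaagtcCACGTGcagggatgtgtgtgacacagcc
Ciart, chr3:95882245-95882366, minus strand: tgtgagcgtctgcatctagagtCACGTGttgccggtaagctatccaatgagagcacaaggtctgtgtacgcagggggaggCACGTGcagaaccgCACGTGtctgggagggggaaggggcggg
Cry1, chr10:85185087-85185136, minus strand: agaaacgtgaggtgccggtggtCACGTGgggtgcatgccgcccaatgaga
Bhlhe41, chr6:145865546-145865595, minus strand: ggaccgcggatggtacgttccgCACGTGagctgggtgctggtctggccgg
The Ciart window held 3 copies of the E-box and each of the other windows 1. A match is a description of these letters and not of a bound site, and a gene without it in this window, such as Dbp or Nr1d2, may hold it elsewhere.

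Genes of the mesenchymal state moved in both directions. Of 56 listed genes 48 were tested, of which 27 were higher, 13 lower and 8 not called, against 16.1% higher and 15.8% lower over all tested genes. Their median was 0.608 on the log2 fold change scale, and the 13 lower genes became 8 without WT replicate 2. The 9 genes named by the study were all higher. They were listed here with earlier results of these libraries known, so that their direction is not independent evidence. These 9 also enter the 27 higher genes and the median. Among the other members, 12 of 20 matrix or secreted genes were higher and 7 lower (median 1.11). Of 7 transcription factors 2 were higher and 2 lower (0.367), of 9 surface receptors 2 and 3 (-0.279) and of 3 cytoskeleton genes 2 and 1 (0.592). Sox9, a transcription factor of neural crest and cartilage, was 115 and 112 CPM in EV and 312 and 359 CPM in WT cells (log2 fold change 1.57 ± 0.092, adjusted p = 2.4e-09). The zinc finger factor Klf4, known from epithelial and stem cells, was 101 and 93.7 CPM in EV and 539.99 and 545 CPM in WT cells (log2 fold change 2.48 ± 0.092, adjusted p = 1.7e-11). Fn1, which encodes fibronectin of the matrix, was 182 and 182 CPM in EV and 546 and 608 CPM in WT cells (log2 fold change 1.67 ± 0.086, adjusted p = 4.5e-10). In each of the 3 genes the groups were well apart and the 2 libraries of a group close together.

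The collagen chain Col1a1 (chr11:94936224-94953042) had the largest difference of the 9, from 1.8 and 2.07 CPM to 48 and 47.8 CPM (24.5-fold; log2 fold change 4.61 ± 0.20, adjusted p = 6.3e-11). The EMT factor Snai2 was 15.4 and 19 CPM in EV and 68.1 and 53.1 CPM in WT cells (1.81 ± 0.15). The homeobox gene Prrx2 was 2.28 and 2.4 CPM in EV and 13.1 and 11.8 CPM in WT cells (2.40 ± 0.26). The receptor tyrosine kinase Axl was the least changed of the 9, at 618 and 590.4 CPM in EV and 991 and 1079 CPM in WT cells (0.78 ± 0.077). Lmo1 (1.48 ± 0.33) and Twist2 (1.08 ± 0.26) were at low levels, below 15 CPM in every library, and the call of Twist2 was lost without WT replicate 2 (0.82).

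Of the matrix and secreted members outside the study's choice, 12 of 20 were higher and 7 lower. Bgn, the small proteoglycan biglycan of the collagen matrix, rose from 7.33 and 4.9 CPM to 117 and 140.3 CPM (21.1-fold; log2 fold change 4.40 ± 0.15, adjusted p = 9.3e-12). Further genes that rose, named after their values were seen, were the gelatinase Mmp2 (53.3 and 53.2 to 146 and 142 CPM), and thrombospondin Thbs1 (13.5 and 8.61 to 42.6 and 36.3 CPM). The activin subunit Inhba (28.9 and 28.4 to 68.7 and 72.5 CPM) and Col3a1 (180.04 and 151 to 312 and 331 CPM) rose too. Others of the same group fell. Postn, the matrix protein periostin, dropped from 54.8 and 54.6 CPM to 11.9 and 10.6 CPM (log2 fold change -2.29 ± 0.16, adjusted p = 2.0e-08). Tenascin Tnc fell from 30.5 and 30.8 to 15.1 and 14.5 CPM and Sparc from 3182 and 3179 to 2194 and 2759 CPM. Vim, the intermediate filament vimentin, was also lower in WT cells (5261 and 5012 CPM in EV, 4481 and 4012 CPM in WT; log2 fold change -0.27 ± 0.075, adjusted p = 0.0097). The call of Vim was lost without EV replicate 1 (-0.24) and without WT replicate 2 (-0.20), and that of Sparc without WT replicate 1 (-0.21).

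Among the surface receptors of the list, Ngfr, the low-affinity nerve growth factor receptor of neural crest stem cells, fell most, from 509 and 497 CPM to 99 and 104 CPM (log2 fold change -2.31 ± 0.099, adjusted p = 6.3e-11). The study places high NGFR in a neural crest-like state, apart from the undifferentiated state with high SOX9 and AXL. The fall of Ngfr was nevertheless counted here among the lower genes of the mesenchymal list. Integrin Itgb3 fell from 40.7 and 38.4 to 10.6 and 13.6 CPM. Pdgfrb rose, from 2.28 and 1.53 to 5.21 and 5.34 CPM (log2 fold change 1.47 ± 0.40, adjusted p = 0.01), a call lost without EV replicate 2. Of the other EMT factors, Zeb1 rose (38.3 and 42.7 to 95 and 74 CPM; log2 fold change 1.06 ± 0.13, adjusted p = 9.7e-06). Its relative Zeb2 was lower (153 and 159 to 134 and 129 CPM; log2 fold change -0.25 ± 0.089, adjusted p = 0.042), a call lost without any 1 of the 4 libraries (-0.28 to -0.22). The Hippo pathway factor Tead1 fell (239 and 242 to 171 and 157 CPM; log2 fold change -0.56 ± 0.088, adjusted p = 1.3e-04), while Twist1, Prrx1 and Runx2 were not called.

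The melanocytic and neural crest list, of which 16 of 31 genes were tested, had 2 higher, 7 lower and 7 not called (median log2 fold change -0.275, which became 0.0369 without WT replicate 2). Sox10 (chr15:79154908-79165240) fell from 321 and 325 CPM to 97 and 97.5 CPM (log2 fold change -1.73 ± 0.095, adjusted p = 9.5e-10), which is 3.32 times higher in EV than in WT cells. The neuregulin receptor Erbb3 fell with it (38.9 and 32.3 to 6.55 and 13.2 CPM; log2 fold change -1.83 ± 0.24, adjusted p = 2.0e-05). So did the neural crest factor Foxd3 (-1.62 ± 0.29) and the SoxD factors Sox5 (-1.26 ± 0.23) and Sox6 (-1.13 ± 0.12). S100b, a calcium-binding protein of glia and melanocytes, rose instead (66.4 and 70.7 to 93 and 118 CPM; log2 fold change 0.63 ± 0.12, adjusted p = 6.7e-04). So did Tfap2b (0.40 ± 0.11), whose call was lost without EV replicate 1 (0.28) and without WT replicate 2 (0.33). Mitf (0.38, adjusted p = 0.12) and Pax3 (-0.039, 0.86) were not called. Of the 13 pigment genes 11 were below the filter, and Gpnmb and Rab27a, the other two, were not called.

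**Figure D2:**
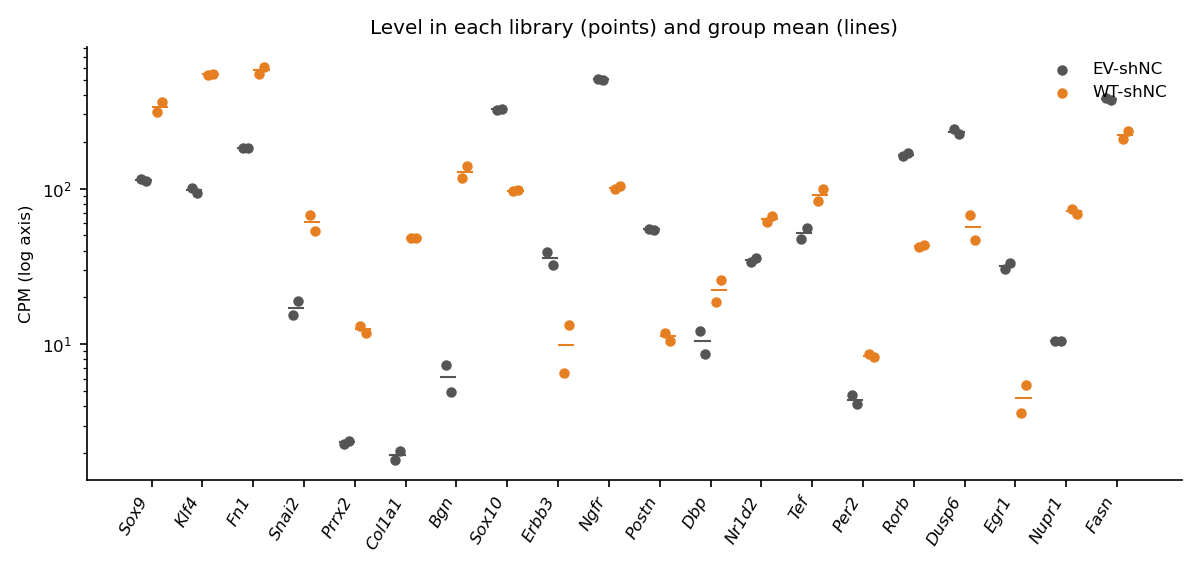
CPM on a log axis in each of the 2 EV-shNC (grey) and 2 WT-shNC (orange) libraries for 20 genes, with the group mean as a line. No gene shown has an EV library inside the range of the WT libraries. The groups did not overlap in 65.8% of all tested genes.

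The collagens were divided. Of 21 tested chains 8 were higher, 4 lower and 9 not called, against 16.1% higher and 15.8% lower over all tested genes. Their median of 0.168 became 0.264 without EV replicate 1, 0.0708 without EV replicate 2, 0.294 without WT replicate 1 and 0.084 without WT replicate 2. Col1a1, Col1a2 (2.76 and 1.85 to 17.1 and 10.9 CPM) and the type VI chains Col6a1, Col6a2 and Col6a3 rose. Col6a3 rose from 2.64 and 3.71 to 11.8 and 14.3 CPM (log2 fold change 2.03 ± 0.24, adjusted p = 5.8e-06). The call of Col6a1 was lost without EV replicate 2 (0.56). The fibrillar chains Col11a1 (119.6 and 113 to 34.1 and 37.3 CPM; log2 fold change -1.70 ± 0.12, adjusted p = 1.3e-08) and Col5a2 (271 and 232 to 137 and 108 CPM; log2 fold change -1.04 ± 0.12, adjusted p = 7.3e-06) fell. The basement membrane chains Col4a1 and Col4a2 were not called, with log2 fold changes of -0.044 and -0.097.

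By a rule on size, the genes with the largest increases at 10 CPM or more were Tgm2, Gm42845, Elavl4, Col1a1, Bgn, Mgll, Scara5, Stmn2, Kcnip1 and Fstl1. Tgm2, a transglutaminase that cross-links matrix proteins, had 2 and 3 reads in the EV libraries and 134 and 99 in the WT libraries, a ratio of 50.7 with a 95% counting interval of 21.4 to 158. Fstl1, a secreted follistatin-like glycoprotein, rose from 13.8 and 15.8 CPM to 161 and 188 CPM (log2 fold change 3.56 ± 0.12, adjusted p = 9.3e-12). The monoglyceride lipase Mgll was 1.44 and 2.4 CPM in EV and 28.2 and 30.9 CPM in WT cells and the ferritin receptor Scara5 0.841 and 1.53 CPM in EV and 19.6 and 16.3 CPM in WT cells. The potassium channel-interacting protein Kcnip1 was 2.88 and 3.71 CPM in EV and 39.3 and 43.5 CPM in WT cells. The neuronal RNA-binding protein Elavl4 (0.36 and 1.2 CPM in EV and 21 and 20.2 CPM in WT cells) and the tubulin-binding stathmin Stmn2 (0 and 1.42 CPM in EV and 11.5 and 8.59 CPM in WT cells) were near 0 in EV cells. Timp3, the matrix-bound metalloproteinase inhibitor, rose at a higher level, from 42.2 and 46 to 258 and 299.8 CPM (log2 fold change 2.66 ± 0.11, adjusted p = 5.0e-11).

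At the other end the 10 largest decreases were Rps6-ps4, Gm12481, Gm4767, Gm10221, Dynlt1b, Rps15a-ps5, Gm12191, Gm4332, Gm47408 and Mmp15. All but Gm47408, a lincRNA, and Mmp15 are pseudogenes, predicted gene models or, as Dynlt1b, genes with near-identical copies, and the authors' estimates can move reads between such copies from library to library. Rps6-ps4, for example, was 156 and 27.8 CPM in the EV libraries and 0 in both WT libraries, and Gm4332 279.97 and 282 CPM in EV and 28.5 and 0 CPM in WT cells. These values are therefore uncertain. Over all tested pseudogenes, 98 of 408 were called, 37 higher and 61 lower. Mmp15, a membrane-type matrix metalloproteinase (chr8:95352268-95375080), fell from 92.2 and 84.5 CPM to 9.62 and 9.29 CPM (log2 fold change -3.22 ± 0.15, adjusted p = 2.3e-10). Coding genes that fell nearly as far, chosen after their values were seen, were the orphan nuclear receptor Nr4a1 (20.9 and 17.7 to 1.74 and 3.25 CPM) and the phosphatase Dusp2 (17.7 and 13.2 to 2.54 and 1.86 CPM). Others were glycerol-3-phosphate dehydrogenase Gpd1 (19.3 and 16.3 to 2.4 and 2.09 CPM) and the POU factor Pou3f1 (63.4 and 57.9 to 8.42 and 14.4 CPM). The imprinted genes Mest (-2.74 ± 0.31) and Peg3 (-2.37 ± 0.32) fell as well. Below 10 CPM, the largest increases were those of Gm10778, Gm21962, Gm2223, Gm26581 and Klhdc8a, all at 0 in both EV libraries. Klhdc8a, the only one of the 5 that is not a predicted model, reached 4.41 and 4.18 CPM, which against a floor of 3 reads is at least 25-fold higher. The largest decreases at that level were of Gm10243, Gm26448, Rpl35a-ps2, Rpl35a-ps3 and Rpl35a-ps4, all at 0 in both WT libraries. The last 3 and Gm10243 are pseudogenes with the same values in every library, 4.92 and 6.97 CPM in EV cells, and Gm26448 is a small nucleolar RNA.

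AP-1 dimers of Fos, Jun and ATF proteins are known for their part in the dedifferentiated state of melanoma. Of 17 tested AP-1 and ATF genes, 6 were higher, 3 lower and 8 not called, against 16.1% higher and 15.8% lower over all genes. Their median log2 fold change of -0.175 became 0.141 without EV replicate 2 and -0.0343 without WT replicate 1. Jund rose from 69.2 and 64.1 CPM to 143 and 153 CPM (log2 fold change 1.15 ± 0.097, adjusted p = 1.5e-07). Atf5 rose from 69.9 and 77.8 CPM to 183 and 216 CPM (log2 fold change 1.43 ± 0.12, adjusted p = 1.9e-07). Atf4, the effector of the integrated stress response, was 366 and 384 CPM in EV and 548 and 628 CPM in WT cells (log2 fold change 0.65 ± 0.093, adjusted p = 4.9e-05). Fosl2 was 74.3 and 80.5 CPM in EV and 110.3 and 118 CPM in WT cells (log2 fold change 0.56 ± 0.099, adjusted p = 3.7e-04). Smaller increases were called for Junb (0.55 ± 0.15) and Atf6 (0.48 ± 0.13). The call of Junb was lost without EV replicate 2 (0.46) and without WT replicate 2 (0.51), and that of Atf6 without EV replicate 2 (0.44). Fosl1, which encodes Fra-1, fell from 82.9 and 79 CPM to 34.7 and 25.7 CPM (log2 fold change -1.43 ± 0.15, adjusted p = 1.9e-06) and Maf fell (-0.80 ± 0.11). Jun fell from 214 and 213 to 174 and 151 CPM (log2 fold change -0.39 ± 0.095, adjusted p = 0.0046). Fos was below 2 CPM in every library. The AP-1 letters TGANTCA stood in the 250 bases before the start site of 5.64% of the 9700 tested genes with a promoter, of 6.54% of those called higher and of 5.38% of those called lower.

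The MRTF-SRF axis couples actin polymerisation to transcription: SRF binds the CArG box, and its partners Mrtfa and Mrtfb are held back by monomeric actin. The study describes Ets factors, stimulated by Erk, as other partners of SRF that compete with MRTF. Of 33 tested genes of the axis, 17 were higher, 5 lower and 11 not called, against 16.1% higher and 15.8% lower over all genes. The median log2 fold change was 0.299 (0.242 to 0.348 with 1 library left out). The 5 lower genes became 3 without EV replicate 1, EV replicate 2 or WT replicate 2. Among the factors, Srf was 31.2 and 34.4 CPM in EV and 43.7 and 44.9 CPM in WT cells (log2 fold change 0.43 ± 0.12, adjusted p = 0.014). Its call was lost without EV replicate 1 (0.36) and without WT replicate 2 (0.41). Mrtfb rose (46.6 and 41.7 to 59.98 and 56.2 CPM; log2 fold change 0.40 ± 0.12, adjusted p = 0.016). This call was lost without EV replicate 2 (0.32) and without WT replicate 1 (0.35). Mrtfa was not called (0.24, adjusted p = 0.42). Among members at 10 CPM or more the largest increases were those of Tgfb1i1, the focal adhesion adaptor Hic-5 (6.37 and 4.25 to 46.6 and 63.5 CPM; log2 fold change 3.38 ± 0.20, adjusted p = 2.7e-09), and of Ankrd1 (4.8 and 4.58 to 43.3 and 40.6 CPM; 3.16 ± 0.17), an ankyrin-repeat protein of the nucleus and sarcomere. The LIM protein Fhl2 was 0.24 and 0.218 CPM in EV and 4.54 and 8.48 CPM in WT cells and tropomyosin Tpm2 0.36 and 0 CPM in EV and 4.14 and 5.57 CPM in WT cells. Smooth muscle actin Acta2 was 0 in both EV libraries and 1.6 and 2.09 CPM in WT cells, at least 10.9-fold higher against a floor of 3 reads. These 3 genes were called but remained at low levels.

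At higher levels the differences were smaller. Actb rose from 11662 and 10882 to 14045 and 13698 CPM (log2 fold change 0.30 ± 0.056, adjusted p = 6.1e-04) and filamin Flna from 519.9 and 484 to 701 and 722 CPM (log2 fold change 0.50 ± 0.078, adjusted p = 1.1e-04). Calponin Cnn2 rose from 50.4 and 43.5 to 99.5 and 88.3 CPM (log2 fold change 1.000 ± 0.12, adjusted p = 1.1e-05) and α-actinin Actn1 from 238 and 214 to 319.6 and 319 CPM. Myh9, the non-muscle myosin heavy chain against which the other hairpins of the study are directed, was 684 and 647 CPM in EV and 976 and 927 CPM in WT cells (log2 fold change 0.52 ± 0.078, adjusted p = 8.3e-05). Actn4, an actin cross-linker, was lower (373 and 381 to 299 and 294 CPM; log2 fold change -0.34 ± 0.08, adjusted p = 0.0034). The immediate early genes Egr1 (30.3 and 33.5 to 3.61 and 5.46 CPM; log2 fold change -2.80 ± 0.22, adjusted p = 7.5e-08) and Egr2 (-2.17 ± 0.59) fell. Which partner of SRF, MRTF or Ets, bears on these genes was not tested. The call of Egr2 was lost without EV replicate 1 and without WT replicate 2 (-1.68). Tagln, Cnn1 and Actg2 were at or near 0 in all 4 libraries, and Vcl, Zyx and Actg1 were not called.

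A CArG box, searched by name on both strands in the same window, was present in 1.44% of the 9700 tested genes with a promoter, in 1.85% of those called higher and in 1.21% of those called lower. It stood in 9 of the 29 genes of the axis with a promoter. Of these 9, Srf, Cnn2, Fhl2 and Filip1l (0.49 ± 0.15) were higher, Egr2 and Lima1 (-0.48 ± 0.12) lower and Actg1, Myl9 and Vcl not called. The call of Filip1l was lost without EV replicate 1 (0.42), EV replicate 2 (0.55) or WT replicate 1 (0.24), and that of Lima1 without EV replicate 2 (-0.42). The windows of all 9 are printed with the box in capitals, to show the sequence known to be bound by Srf in members that went either way.
Srf, chr17:46556193-46556266, minus strand: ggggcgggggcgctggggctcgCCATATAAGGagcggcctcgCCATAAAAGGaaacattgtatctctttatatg
Cnn2, chr10:79988522-79988575, plus strand: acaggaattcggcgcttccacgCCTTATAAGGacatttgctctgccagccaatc
Fhl2, first start site, chr1:43163962-43164014, minus strand: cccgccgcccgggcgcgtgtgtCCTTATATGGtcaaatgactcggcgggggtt
Fhl2, other start site, chr1:43196826-43196879, minus strand: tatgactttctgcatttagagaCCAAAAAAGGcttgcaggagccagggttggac
Filip1l, chr16:57549158-57549211, plus strand: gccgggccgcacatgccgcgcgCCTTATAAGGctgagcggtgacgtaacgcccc
Egr2, first start site, chr10:67537472-67537525, plus strand: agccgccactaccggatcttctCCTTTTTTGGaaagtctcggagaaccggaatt
Egr2, other start site, chr10:67537775-67537828, plus strand: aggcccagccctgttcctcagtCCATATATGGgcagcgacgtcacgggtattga
Lima1, chr15:99820165-99820218, minus strand: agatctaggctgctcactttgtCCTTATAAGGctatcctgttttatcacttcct
Actg1, chr11:120348554-120348607, minus strand: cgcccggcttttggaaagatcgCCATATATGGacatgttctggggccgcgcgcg
Myl9, chr2:156775281-156775334, plus strand: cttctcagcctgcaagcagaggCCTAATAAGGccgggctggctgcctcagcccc
Vcl, chr14:20929149-20929202, plus strand: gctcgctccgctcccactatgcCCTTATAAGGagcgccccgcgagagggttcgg
The Srf window held 2 boxes and each of the other windows 1.

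**Figure D3:**
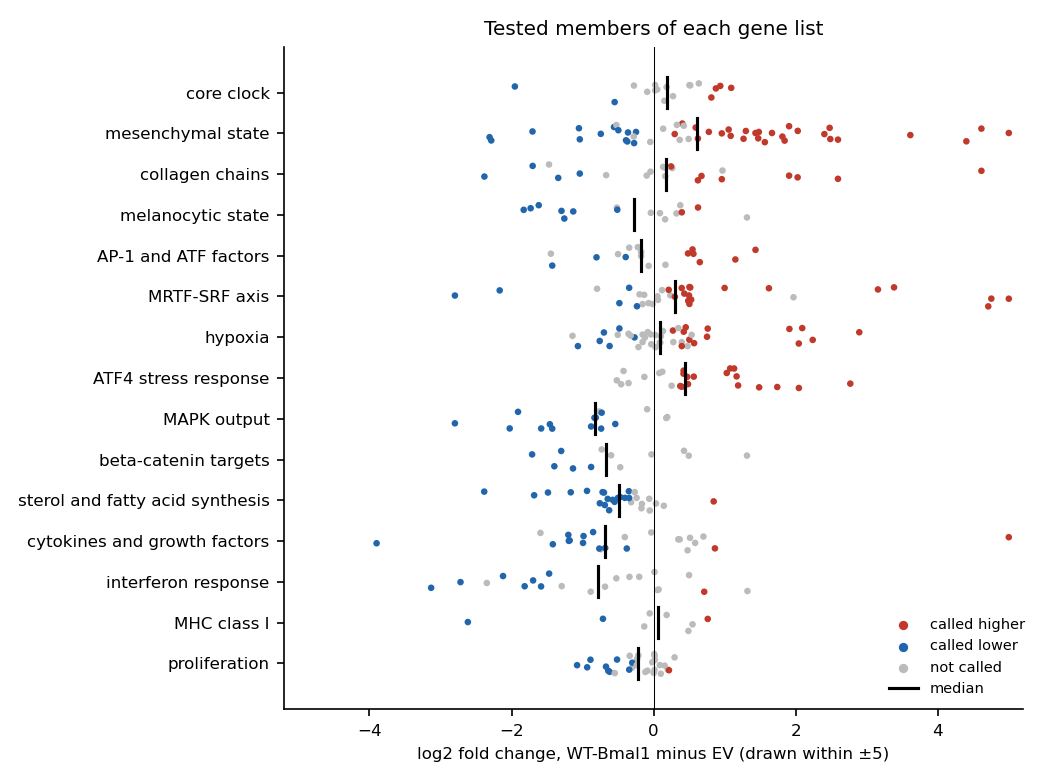
Each point is a tested member of the list named on the left, placed by its log2 fold change of WT-Bmal1 against EV (drawn within ±5); red points were called higher, blue points lower and grey points neither, and the black bar is the median. The ATF4 list holds no gene called lower and the MAPK output and β-catenin lists none called higher.

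Targets of the MAPK pathway, which mutant Braf drives in these cells, were lower. Of 16 tested genes, 12 fell, 4 were not called and none rose, with a median log2 fold change of -0.823, against 15.8% lower and 0.0179 over all tested genes. Dusp6, the phosphatase that feeds back on ERK, was 240.1 and 223 CPM in EV and 67.6 and 46.5 CPM in WT cells (log2 fold change -2.03 ± 0.16, adjusted p = 5.5e-08). The feedback genes Dusp5 (40.8 and 37.7 to 14.4 and 11.8 CPM), Spry2 (52.1 and 62.1 to 27.5 and 36.5 CPM) and Spry4 (13.8 and 14.6 to 5.34 and 2.32 CPM) fell with it. Phlda1 fell from 283 and 268 to 90.7 and 109 CPM (log2 fold change -1.46 ± 0.12, adjusted p = 9.5e-08). The cyclin Ccnd1 fell from 5087 and 4796 to 2862 and 2509 CPM (log2 fold change -0.88 ± 0.079, adjusted p = 3.0e-07). Of the ETS factors downstream of ERK, Etv5 fell (-0.81 ± 0.11) and Etv1 and Etv4 were not called (0.19 and -0.091).

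Of 12 tested β-catenin targets 5 fell, 7 were not called and none rose (median -0.664). The R-spondin receptors Lgr6 (60.7 and 56.8 to 20.3 and 15.7 CPM; log2 fold change -1.71 ± 0.17, adjusted p = 1.4e-06) and Lgr5 (-1.13 ± 0.26) fell. So did Nkd2, an inhibitor of Wnt signalling (129.7 and 129 to 52.8 and 52.4 CPM; log2 fold change -1.30 ± 0.14, adjusted p = 3.4e-06). Ccnd1 is on both lists. Axin2, the usual readout of the pathway, was below 1 CPM in every library and was not called.

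Genes of the ATF4 stress response rose together. Of 24 genes, all tested, 16 were higher, none lower and 8 not called, with a median log2 fold change of 0.448 (0.566 without EV replicate 1); 2 were lower without WT replicate 1 and 1 without WT replicate 2. Nupr1, a stress-induced chromatin protein, was 10.4 and 10.5 CPM in EV and 73.7 and 69 CPM in WT cells (6.81-fold; log2 fold change 2.77 ± 0.13, adjusted p = 2.5e-10). The collagen receptor Ddr2 was 78.5 and 87.4 CPM in EV and 218 and 247 CPM in WT cells (log2 fold change 1.49 ± 0.099, adjusted p = 1.0e-08). The pseudokinase Trib3 was 34.5 and 36.9 CPM in EV and 68.8 and 91.5 CPM in WT cells (log2 fold change 1.17 ± 0.13, adjusted p = 3.3e-06). The lipoprotein receptor Vldlr was 56.5 and 60.05 CPM in EV and 131 and 115 CPM in WT cells (log2 fold change 1.08 ± 0.10, adjusted p = 5.6e-07). Enzymes of proline and serine synthesis rose too, among them Pycr1 (3.6 and 3.6 to 15.9 and 13.9 CPM), Psat1 (386 and 364 to 506 and 535 CPM) and Shmt2 (183 and 175 to 243 and 286 CPM). The amino acid transporters Slc7a11 (-0.35, adjusted p = 0.06) and Slc7a5 (-0.46, 0.12) and the transcription factor Ddit3 (0.25, 0.093) were not called.

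Sterol and fatty acid synthesis went the other way. Of 28 genes, all tested, 18 were lower, 1 higher and 9 not called, with a median log2 fold change of -0.486. Dhcr7, the last enzyme of cholesterol synthesis, fell from 27.6 and 23.2 to 6.55 and 9.17 CPM (log2 fold change -1.68 ± 0.22, adjusted p = 1.8e-05). Cyp51 (243 and 235 to 139 and 155 CPM) and Fdps (200.1 and 199 to 123 and 125 CPM), of the same pathway, fell by less. On the fatty acid side, the elongase Elovl6 fell from 39.5 and 41 to 14.3 and 14.4 CPM (log2 fold change -1.49 ± 0.16, adjusted p = 2.3e-06). The synthase Fasn fell from 383 and 369 to 209.7 and 235 CPM (log2 fold change -0.76 ± 0.09, adjusted p = 7.3e-06). Srebf1, the transcription factor of this arm, fell from 24.4 and 16.3 to 4.94 and 2.9 CPM (log2 fold change -2.38 ± 0.29, adjusted p = 1.0e-05). Srebf2, the factor of the sterol arm, was not called (-0.055 ± 0.12). The 1 gene that rose was Mvd, of the mevalonate pathway (31.1 and 26.3 to 48 and 54.9 CPM; log2 fold change 0.85 ± 0.14, adjusted p = 1.8e-04).

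Hypoxia-responsive genes, which HIF factors of the same protein family as Bmal1 control, were divided. Of 41 tested genes, 13 were higher, 6 lower and 22 not called (median 0.094). With 16.1% higher and 15.8% lower over all tested genes, the lower members were near the general share. Hif1a, the oxygen-regulated factor itself, was 115 and 105 CPM in EV and 111 and 99.1 CPM in WT cells (-0.066 ± 0.099, adjusted p = 0.65). The vasoactive peptide gene Adm rose from 7.09 and 9.26 to 31.3 and 46.1 CPM (log2 fold change 2.24 ± 0.21, adjusted p = 4.2e-07). The prolyl hydroxylase Egln3 rose from 10.8 and 6.32 to 37.8 and 32.5 CPM (log2 fold change 2.04 ± 0.21, adjusted p = 1.6e-06) and Ndrg1 from 15.3 and 15.7 to 63.7 and 53 CPM (log2 fold change 1.91 ± 0.14, adjusted p = 3.3e-08). Glycolytic genes were mixed. The isomerase Tpi1 fell from 688 and 625 to 344 and 283 CPM (log2 fold change -1.07 ± 0.12, adjusted p = 3.1e-06) and hexokinase Hk2 from 190.5 and 176 to 113 and 126 CPM. The mutase Pgam1 rose from 2242 and 2316 to 2901 and 3554 CPM, and Ldha, Pgk1, Aldoa and Slc2a1 were not called. Vegfa (0.35, adjusted p = 0.069) and Car9 (0.48, 0.41) did not pass either.

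Of 20 tested genes of the interferon response 7 were lower, 1 higher and 12 not called (median -0.785), most of them at low levels. Xaf1 fell from 37 and 38.1 to 15.8 and 7.66 CPM (log2 fold change -1.70 ± 0.23, adjusted p = 2.7e-05) and the guanylate-binding protein Gbp7 from 10.7 and 11.8 to 4.28 and 3.83 CPM. The T-cell chemokines Cxcl10 (10.1 and 6.87 to 2.27 and 1.63 CPM; log2 fold change -2.12 ± 0.41, adjusted p = 7.9e-04) and Ccl5 (6.25 and 10.8 to 2.27 and 3.37 CPM; log2 fold change -1.58 ± 0.33, adjusted p = 0.0016) fell too. Irf9 was the gene that rose (11.4 and 12.9 to 20.6 and 19.3 CPM; log2 fold change 0.71 ± 0.19, adjusted p = 0.0091), and its call was lost without EV replicate 1 (0.63). Of 8 tested genes of MHC class I presentation, 1 was higher, 2 lower and 5 not called, against 16.1% higher and 15.8% lower over all genes. Their median of 0.0645 became 0.0404 without EV replicate 1, 0.185 without EV replicate 2 and -0.0121 without WT replicate 2. Tapasin, Tapbp, rose (24 and 21 to 39.8 and 36.6 CPM; log2 fold change 0.76 ± 0.15, adjusted p = 7.1e-04). H2-T23 (144 and 164 to 98.3 and 89.998 CPM; log2 fold change -0.71 ± 0.11, adjusted p = 8.2e-05) and H2-K1 fell, while B2m and H2-D1 were not called. The H2 genes are close copies of each other, so that their single values are uncertain.

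Of 23 tested cytokines and growth factors 11 were lower, 2 higher and 10 not called (median -0.681, and -0.418 without WT replicate 2). Il33, an alarmin, fell from 286 and 292 to 117 and 135 CPM (log2 fold change -1.20 ± 0.095, adjusted p = 7.3e-08). The EGF receptor ligand Hbegf fell from 204 and 193 to 82.7 and 90.6 CPM (log2 fold change -1.19 ± 0.096, adjusted p = 9.2e-08) and its relatives Areg (-0.99 ± 0.18) and Ereg (-1.18 ± 0.26) fell as well. Pdgfa (469 and 479.5 to 303 and 289 CPM) and the TGF-β ligands Tgfb1 (15 and 26.4 to 5.74 and 9.64 CPM) and Tgfb2 (33.8 and 33.6 to 16 and 17.9 CPM) were lower. Csf1, the macrophage growth factor, rose from 21.7 and 27.1 to 48.4 and 40.9 CPM (log2 fold change 0.86 ± 0.14, adjusted p = 1.7e-04). Cxcl12, called as higher, was 0 in both EV libraries and 0.668 and 0.697 CPM in WT cells. Its call was lost without EV replicate 1, EV replicate 2 or WT replicate 2. Cxcl1, Csf2, Il6 and Il23a were at or near 0.

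Of 29 proliferation genes, all tested, 9 were lower, 1 higher and 19 not called (median -0.215). Mki67 (502 and 533 CPM in EV and 491 and 464 CPM in WT cells; -0.12, adjusted p = 0.32) and Plk1 were not called. Cdk1 fell from 384 and 372 to 226 and 170.4 CPM (log2 fold change -0.94 ± 0.13, adjusted p = 3.6e-05). The ribonucleotide reductase subunit Rrm2 fell from 107 and 94.6 to 54.1 and 54.7 CPM (log2 fold change -0.89 ± 0.11, adjusted p = 7.1e-06). Mcm6, of the replicative helicase, fell from 112 and 105 to 75.9 and 60.4 CPM and the mitotic kinesin Cenpe with a log2 fold change of -0.51 ± 0.10. Top2a was the gene that rose (1063 and 1110.3 to 1241 and 1283 CPM; log2 fold change 0.22 ± 0.074, adjusted p = 0.035). This call was lost without EV replicate 1 (0.18), EV replicate 2 (0.25) or WT replicate 2 (0.19). The 9 lower genes became 5 without EV replicate 1.

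Another shNC population expressed dHLH-Bmal1, a mutant that lacks the basic helix-loop-helix domain and with it the DNA binding. The study describes this mutant as able to pair with Clock and as an inhibitor of the cells' own Clock-Bmal1 pair. The values of this population against EV (4835 genes called, 2416 higher and 2419 lower) share the EV libraries of the comparison above. They are therefore only set beside those of WT-Bmal1. Sox9 had a log2 fold change of 1.57 with WT-Bmal1 and 1.53 with dHLH-Bmal1, Klf4 of 2.48 and 2.75, Fn1 of 1.67 and 1.73, Dusp6 of -2.03 and -1.995, Nupr1 of 2.77 and 2.96 and Rorb of -1.95 and -2.11. The clock outputs were otherwise: Dbp had 1.09 with WT-Bmal1 and 0.0059 with dHLH-Bmal1, Nr1d2 0.88 and -0.30, and Tef 0.81 and 0.033.

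Set directly against dHLH-Bmal1, in a test added after the values were seen, WT-Bmal1 gave 650 called genes of 14027 (4.63%), 342 higher (2.44%) and 308 lower (2.2%) than with the mutant. Values in parentheses are the log2 fold change of WT-Bmal1 against dHLH-Bmal1 ± SE and its adjusted p. Dbp was 18.6 and 25.9 CPM with WT-Bmal1 and 10.4 and 10.6 CPM with dHLH-Bmal1 (log2 fold change 1.09 ± 0.23 (SE), adjusted p = 0.011). Nr1d2 was 60.8 and 67 CPM with WT-Bmal1 and 26.5 and 30.5 CPM with dHLH-Bmal1 (1.18 ± 0.13, 3.4e-05). Tef was 82.7 and 99.1 CPM with WT-Bmal1 and 49 and 57.9 CPM with dHLH-Bmal1 (0.78 ± 0.14, 0.0031). Nr1d1 was 9.08 and 10.8 CPM with WT-Bmal1 and 3.87 and 4.16 CPM with dHLH-Bmal1 (1.32 ± 0.27, 0.0082). Per3 was 18.7 and 21.8 CPM with WT-Bmal1 and 12.1 and 7.36 CPM with dHLH-Bmal1 (0.997 ± 0.23, 0.02). Cry1, whose protein inhibits the Bmal1-Clock pair, went the other way, at 16.6 and 18.5 CPM with WT-Bmal1 and 32.2 and 32.8 CPM with dHLH-Bmal1 (-0.89 ± 0.16, 0.0032). Of the 17 tested clock genes, 5 were thus higher and 1 lower with WT-Bmal1 than with the mutant. For the others, Per2 among them, the difference did not pass (0.19 ± 0.31, 0.8). Nr1d1, Per3 and Cry1 were not called for WT-Bmal1 against EV. A difference between the forms does not tell a change with WT-Bmal1 from an opposite change with the inhibiting mutant. Sox10 fell less with WT-Bmal1 (97 and 97.5 CPM) than with dHLH-Bmal1 (22.2 and 25.7 CPM; 2.04 ± 0.11, 3.3e-09). Col1a1 (194 and 178 CPM with dHLH-Bmal1) and Bgn (348 and 348 CPM) rose less (-1.96 ± 0.12, 2.8e-08, and -1.43 ± 0.11, 5.2e-07). The call of Dbp was lost without WT replicate 2 (0.82), dHLH replicate 1 (1.08) and dHLH replicate 2 (1.09), and that of Tef without dHLH replicate 1 (0.65). The call of Nr1d1 was lost without WT replicate 2 (1.18), dHLH replicate 1 (1.255) and dHLH replicate 2 (1.36), that of Per3 without WT replicate 2 (0.87) and dHLH replicate 2 (0.74), and that of Cry1 in a fit of all 40 libraries (-0.89, adjusted p = 0.079). The number of called genes was 316 without WT replicate 2, 166 without dHLH replicate 1 and 229 without dHLH replicate 2. For Sox9 the difference was 0.038 ± 0.088 (adjusted p = 0.87).

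The same vectors were compared in 5 other backgrounds, none of which shares a library with the 4 described here. These were YUMM2.1 with either of the hairpins against Myh9, shMyh9#2 and shMyh9#4, YUMM2.1 before any hairpin, the Bmal1-null YUMM2.1 clone aC3, and YUMM1.7, a line with mutant Braf and loss of Cdkn2a. Set against 31.9% in shNC cells, WT-Bmal1 against EV called 3142 genes (21.2%; 10.3% higher and 10.8% lower) with shMyh9#4 and 909 (6.12%; 3.06% higher and 3.06% lower) with shMyh9#2. In aC3 1184 were called (7.96%; 3.27% higher and 4.69% lower) and in YUMM1.7 2 (0.0133%; 0.00667% in each direction), where 810 had an unadjusted p under 0.05 and DESeq2 called 12. In YUMM2.1 without hairpin 0 genes were called by edgeR, 137 had an unadjusted p under 0.05 and DESeq2 called 1. For YUMM2.1 cells described without a hairpin, the study itself reported genes changed by WT-Bmal1, raised Sox9 among them. In that background the libraries did not group by label. EV replicate 1 correlated best with WT replicate 1 (r = 0.9852) and EV replicate 2 with WT replicate 2 (0.9797), above the 2 EV libraries with each other (0.9675) and the 2 WT libraries with each other (0.977). Sox9, for example, was 18.2 and 86 CPM in the EV and 19.4 and 84.4 CPM in the WT libraries. Without EV replicate 2 and WT replicate 1, left out together after the data were seen, 70 of 15451 genes were called and 1096 had an unadjusted p under 0.05, each group then being 1 library that is assumed to vary like the others. In that fit Sox9 (log2 fold change 2.21, adjusted p = 1.9e-04), Fstl1 (2.79, 9.4e-05), Klf4 (1.03, 0.0075), Fn1 (0.95, 0.01), Bgn (1.21, 0.018) and Col1a1 (1.41, 0.015) were called higher in WT cells. Sox10 (-0.23, 0.82), Ngfr (-0.11, 0.95), Timp3 (-0.14, 0.93) and Rorb (-0.24, 0.81) were not called. The 2 libraries were left out with these values known, so that the values only describe the 2 that remain.

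**Figure D4:**
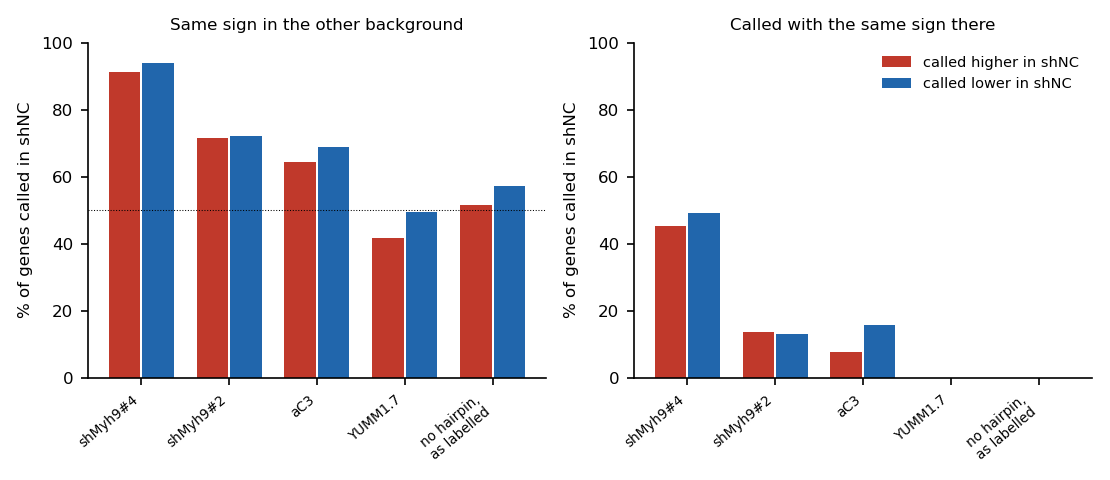
For the genes called higher (red) or lower (blue) by WT-Bmal1 in shNC cells, the left panel gives the percentage with a log2 fold change of the same sign in each other background and the right panel the percentage called there with that sign; the dotted line marks 50%. The bars are highest with shMyh9#4 and at or near 0 on the right for YUMM1.7 and for cells without hairpin.

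Of the genes called in shNC cells, 91.3% of the higher and 93.9% of the lower had the same sign with shMyh9#4, 71.5% and 72% with shMyh9#2, 64.4% and 68.9% in aC3, 41.7% and 49.3% in YUMM1.7 and 51.6% and 57.1% without hairpin. Over all tested genes the log2 fold change was positive in 51.8%, 50.7%, 51%, 48% and 47.8%, in the same order of backgrounds. It was negative in 48.1%, 49.1%, 48.2%, 50.8% and 52.2%. Genes called in shNC cells were also called with the same sign in 45.4% and 49% with shMyh9#4, 13.6% and 13.1% with shMyh9#2 and 7.58% and 15.7% in aC3. Called with the opposite sign were 11 and 4 genes with shMyh9#4, 21 and 13 with shMyh9#2 and 82 and 115 in aC3, where 171 and 348 were called with the same sign. The log2 fold changes of shNC cells were also correlated with those of each background over 14027 genes, which are not independent replicates. Pearson's r was 0.583 for shMyh9#4, 0.361 for shMyh9#2, 0.151 for aC3, 0.0551 for cells without hairpin and 0.00831 for YUMM1.7. All values given here for cells without hairpin come from libraries that did not group by label.

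The difference between the effects was itself tested as an interaction. A difference is the log2 fold change in shNC cells minus that in the other background, given as value ± SE and followed by its adjusted p. With shMyh9#4 it was called for 110 genes (0.741% of those tested), 93 with a higher (0.626%) and 17 with a lower (0.114%) log2 fold change in shNC cells. Sox9 was among them. It was 260.3 and 281 CPM in the EV and 324 and 294 CPM in the WT libraries with shMyh9#4, a log2 fold change of 0.19, 1.37 ± 0.15 (SE) less than in shNC cells (adjusted p = 1.9e-04). The EV cells with this hairpin were thus already near the level that the WT cells reached with shNC. For Sox10 the effects were -1.73 and -1.80 (difference 0.066 ± 0.15, adjusted p = 0.93), and for Dbp 1.09 and 1.03 (difference 0.051 ± 0.33, 0.98). With shMyh9#2 the difference was called for 769 genes (5.18%), 509 with a higher log2 fold change in shNC cells (3.43%) and 260 with a lower one (1.75%). Fstl1 rose in shNC cells and was 56.7 and 55.1 CPM in EV and 43 and 46.9 CPM in WT cells with shMyh9#2 (difference 3.86 ± 0.18, 9.9e-10). Bgn was 128 and 125 CPM in EV cells with shMyh9#2 and 413 and 435 CPM in WT cells (difference 2.65 ± 0.24, 1.9e-06). Sox9 was 290.1 and 293 CPM in EV and 396 and 391.8 CPM in WT cells (1.13 ± 0.15, 1.5e-04). Myh9 itself lay at 223 and 241 CPM in EV and 226 and 233 CPM in WT cells with shMyh9#2. It lay at 479 and 448 CPM in EV and 528 and 461 CPM in WT cells with shMyh9#4, against 684 and 647 CPM and 976 and 927 CPM with shNC. The 769 genes became 312 to 433 without any 1 of 7 of the 8 libraries compared and 550 without WT-shNC replicate 1. The 110 genes became 38 to 69 without any 1 of 7 libraries and 144 without EV-shMyh9#4 replicate 1. The differences given for Sox9, Bgn and Fstl1 remained called under every such omission.

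In aC3 cells, which lack Bmal1 of their own, the effect of WT-Bmal1 differed from that in shNC cells for 2116 genes (14.2%), 904 with a higher (6.08%) and 1212 with a lower (8.15%) log2 fold change in shNC cells. Of 18 clock genes tested in aC3, 8 rose and 4 fell upon WT-Bmal1, while for 11 the effect was unlike that in shNC cells. Over all genes tested in aC3, 3.27% were called higher and 4.69% lower, beside which the list counts for aC3 are to be read. Dbp went from 7.31 and 7.95 CPM to 45.1 and 43.9 CPM in aC3 (log2 fold change 2.54; difference -1.46 ± 0.29, adjusted p = 0.0016). Nr1d1 went from 1.87 and 2.13 to 10.9 and 13 CPM (2.57; -2.53 ± 0.36, 7.0e-05). Per2 went from 1.07 and 1.2 to 9.1 and 7.98 CPM (2.90; -1.97 ± 0.50, 0.011). The call for Per2 was lost without aC3-EV replicate 1 (adjusted p = 0.059), and the 2116 genes became 1384 without that library and 1404 without aC3-WT replicate 1. Sox10, which fell in shNC cells, was 451 and 439.7 CPM in EV and 543 and 549.7 CPM in WT cells of aC3 (0.30; -2.04 ± 0.12, 1.8e-09). Col1a1 was 2.41 and 2.68 CPM in EV and 2.44 and 2.76 CPM in WT cells (0.03; 4.57 ± 0.34, 3.3e-08). For Sox9 the effects were 1.57 and 1.34 and their difference did not pass (0.21 ± 0.21, 0.56), at levels of 3.21 and 4.34 CPM in EV and 9.1 and 10.03 CPM in WT cells of aC3. The ATF4 list, with 16 of 24 genes higher in shNC cells, had 2 higher and 11 lower in aC3, and 16 of its genes differed. The sterol and fatty acid list, with 18 of 28 lower in shNC cells, had 4 higher and none lower in aC3. The effect differed for 19 of its genes. With shMyh9#4 the list had 14 lower and none higher, against 10.8% lower over all tested genes. With shMyh9#2 it had 1 lower and none higher, near the general share of 3.06% lower. The effect differed there for 7 of its genes, against 5.18% of all tested genes.

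In YUMM1.7 the effects differed from those in shNC YUMM2.1 for 3227 genes (21.5%; 10.9% higher and 10.6% lower in shNC cells). Bgn was 673 and 674 CPM in EV and 613 and 604 CPM in WT cells of YUMM1.7 (difference 4.54 ± 0.16, adjusted p = 5.2e-13). Klf4 was 97.4 and 102 CPM in EV and 97.8 and 101 CPM in WT cells (2.47 ± 0.11, 8.6e-12). Sox9 was 211 and 220.1 CPM in EV and 231 and 245 CPM in WT cells (1.42 ± 0.11, 2.2e-08) and Sox10 below 2 CPM in all 4 of these libraries. Against YUMM2.1 without hairpin, as labelled, 978 genes (6.6%) differed, 461 with a higher (3.11%) and 517 with a lower (3.49%) log2 fold change in shNC cells. Timp3 (2.69 ± 0.18, 1.2e-05), Ngfr (-2.31 ± 0.17, 2.8e-05) and Rorb (-1.85 ± 0.14, 2.8e-05) had the smallest adjusted p among genes of at least 10 CPM. The count was 459 without EV replicate 2, 406 without WT replicate 1 and 276 without both, the 3 named genes staying called each time. It was 1565 without EV replicate 1, and 356 to 399 without shNC-EV replicate 1, shNC-EV replicate 2 or shNC-WT replicate 2. The hairpin populations and those without hairpin differ also in the puromycin selection, whose part in the result was not tested.

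**Figure D5:**
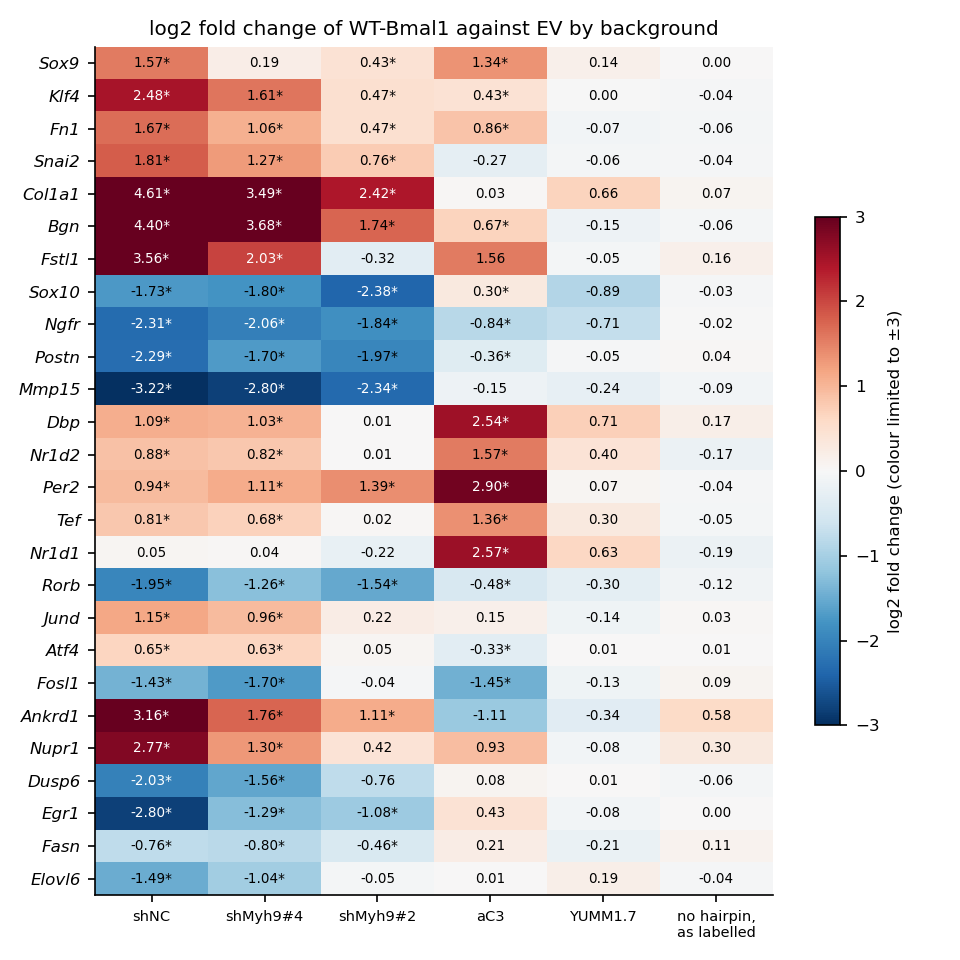
Log2 fold change of WT-Bmal1 against EV for 26 genes (rows) in shNC cells and the 5 other backgrounds (columns), coloured from blue (lower) to red (higher) and limited to ±3; an asterisk marks an adjusted p under 0.05 within that background. The clock genes Dbp, Nr1d2, Per2, Tef and Nr1d1 are most raised in aC3, and Col1a1, Bgn and Fstl1 in shNC cells.

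Counting was not stated to use strand. Among the genes given with values, Actn1, Actn4, Adm, Arntl, Atf5, Bhlhe40, Bhlhe41, Ccnd1, Cdh5, Ciart, Cry2, Cxcl10, Cyp51, Dbp, Ddr2, Dusp5, Elovl6, Ereg, Fhl2, Filip1l, Fn1, Fosl1, Gpd1, H2-T23, Hif1a, Hk2, Inhba, Jun, Junb, Jund, Kcnip1, Lgr5, Lima1, Lmo1, Maf, Mest, Mgll, Mrtfb, Mvd, Ndrg1, Nkd2, Nr1d1, Pdgfa, Phlda1, Pou3f1, Psat1, Rora, S100b, Shmt2, Sox5, Sox6, Spry4, Srebf1, Srf, Tapbp, Tead1, Tef, Tgfb2, Tgm2, Thbs1, Timp3, Tnc, Top2a, Tpi1, Twist2, Zeb1 and Zeb2, as well as several of the pseudogenes, overlap an annotated gene on the other strand, so that reads of the 2 genes of such a pair may have been counted together.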

How the data were processed

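QuantSeq FWD 3′ libraries made from DNase-treated RNA were sequenced as single reads. The authors aligned these with bowtie2 to mm10 and quantified them with RSEM (version 1.2.3 per the submitters' processing notes) against Ensembl transcripts. The publication states a different RSEM version. The deposited values are expected counts per gene, not normalised, and were rounded here to whole numbers. The Ensembl release and the strand used for counting are not given in the sources used here. Symbols and positions were taken from GENCODE annotation of the same build, and promoter sequences from RefSeq (GRCm38.p6).

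Libraries were grouped by their labels. The comparison was fitted with edgeR 4.0.16 (R 4.3.3, limma 3.58.1) on the 8 libraries of YUMM2.1-EV, -WT and -dHLH with shNC and of YUMM2.1-EV with shMyh9#2, which share 1 estimate of the spread, with TMM normalisation, filterByExpr and the quasi-likelihood test; an SE is the log2 fold change divided by the square root of F. CPM values use library totals scaled by the TMM factors of the fit concerned. The effects in the other backgrounds were compared with that in shNC cells as interaction terms, with the hairpins in 1 fit of 18 libraries and each of the other backgrounds in a fit of 14. The adjusted p threshold was 0.05, and 2-fold limits, other normalisation, DESeq2 1.42.0, other filters, larger and smaller fits, a replicate block and leaving out each library were tried. The scripts were tested on simulated data.

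Genes were named by rule: those that the study names for added Bmal1, all core clock genes, the 10 called genes of at least 10 CPM with the largest change in each direction, the 5 largest below that level with a mean of at least 10 counts, up to 4 called members of each list with the smallest adjusted p, and the 3 genes with the smallest adjusted p of each difference between backgrounds. Other called list members and further coding genes were picked with their values known. The comparison, the lists and these rules were chosen with earlier results of these data known. In the main fit same-numbered libraries did not deviate together (correlations of -0.0888 to 0.0503). The replicate numbers were therefore not taken as pairs. Without hairpin, however, the same-numbered EV and WT libraries were the closest pairs (r = 0.9852 and 0.9797). The fit reported for that background is unpaired. With the replicate number as a block, 1403 rather than 978 genes differed there. Counting error alone is covered by the intervals and floors given. Figures were drawn with matplotlib 3.10.9. A few genes are not reported here.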

Additional observations from a re-analysis of the deposited data

Results flagged for a closer look

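Differences between backgrounds in the effect of WT-Bmal1, tested as interaction terms with edgeR's quasi-likelihood test, were the results that called for a closer look; groups of 2 libraries allow no test for an outlying library. Against shMyh9#2 the effect in shNC cells differed for 769 genes, with log2 differences of 3.865 for Fstl1, 3.03 for Cyp26b1, an enzyme that degrades retinoic acid, and 2.59 for Trim47, a ubiquitin ligase. Cyp26b1 was 80.7 and 92 CPM in EV and 378 and 447 CPM in WT cells with shNC and 263 and 262 CPM in EV and 157 and 149 CPM in WT cells with shMyh9#2. Against shMyh9#4 it differed for 110 genes, with 2.17 for the troponin gene Tnnt2, 1.728 for Rnf165, another ubiquitin ligase, and 1.369 for Sox9.

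Against aC3 it differed for 2116 genes, with -3.091 for Mmp15, -2.799 for the cell adhesion gene Chl1 and -2.746 for Ajap1, a protein of adherens junctions. Chl1 was 390.1 and 404 CPM in EV and 97.5 and 108 CPM in WT cells with shNC and 674 and 667 CPM in EV and 1213 and 1180.1 CPM in WT cells of aC3. Against YUMM1.7 it differed for 3227 genes, with 4.541 for Bgn, 3.599 for Fstl1 and 3.138 for the Wnt modulator Dkk2. Against YUMM2.1 without hairpin, whose libraries did not group by label, it differed for 978 genes, with 2.692 for Timp3, -2.306 for Ngfr and -1.851 for Rorb. Each of these 15 gene differences remained called when any 1 of the 8 libraries concerned was left out. What sets the backgrounds apart was not tested.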

How the results depend on the processing

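Of 252 named genes called, 171 stayed called in the same direction under each of 13 alternatives that gave a value, and no gene reversed. RLE size factors, DESeq2 and other filters gave 4461, 3824, 4593 and 4412 called genes against 4473, and with 1 library left out 2847 to 4120; a 2-fold minimum left 1535. Same-numbered libraries of the main fit share only a number, whereas those without hairpin were the closest pairs. With the replicate number as a block the comparison called 4401 genes. The differences were then called for 690 (shMyh9#2), 98 (shMyh9#4), 1403 (no hairpin), 2233 (aC3) and 3198 (YUMM1.7) genes, and WT-Bmal1 against dHLH-Bmal1 called 635. The 2-fold minimum left 434, 70, 621, 971, 1225 and 224 genes in that order. With 1 library left out they were 312 to 550, 38 to 144, 356 to 1565, 1384 to 2329, 2265 to 3439 and 166 to 814. Without a filter on low counts 1313 genes differed from shMyh9#2 (52.4% rather than 66.2% higher in shNC cells), 317 from shMyh9#4 (74.4% rather than 84.5%), 1710 from cells without hairpin and 1032 between WT-Bmal1 and dHLH-Bmal1. In a fit of all 40 libraries these were 31 for shMyh9#4 (54.8% higher), 1068 for aC3, 1293 for YUMM1.7 and 246 for dHLH-Bmal1, and DESeq2 gave 197 for shMyh9#4. For cells without hairpin, leaving out EV replicate 2 and WT replicate 1 gave 276 (34.8% higher rather than 47.1%), and exchanging their labels, which the labels do not give, 1131 (35.9%). Of 17 list medians 3 changed sign under an alternative (melanocytic, AP-1, MHC class I); those of the MRTF-SRF axis lay at 0.27 under the filter on the mean count and at 0.268 with only the 4 libraries, and that of the mesenchymal list at 0.714 without WT replicate 1. The causes of these shifts were not tested. With 2 libraries in each group, low genes carry the least certain values.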
